A study of Mus musculus with 9 samples.

Results

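The Bcl2 family genes described here are 10 mouse genes that decide, at the mitochondrion, whether a stressed cell survives or dies, out of 21900 protein-coding genes in the RefSeq annotation of GRCm38. They were taken by name: the pro-survival genes Bcl2, Bcl2l1 and Mcl1, and the pro-death genes Bcl2l11, Bbc3, Pmaip1, Bad, Bid, Bax and Bak1. All 10 were matched by symbol. For each gene, every m6A peak within 500 bp of its gene body was collected from the peak lists of both wild-type immunoprecipitations, and the positions, widths and enrichments were compared between the replicates and between the pro-survival and pro-death genes. The libraries came from mouse embryonic stem cells (mESCs) that carry the background labelled Rosa26:CRE, Bir ligase, and there were 2 m6A immunoprecipitations each from WT, Mettl3KO and Zc3h13KO cells with 1 input per genotype. In m6A-RIP-seq an antibody pulls down RNA fragments that carry N6-methyladenosine, and 30 ng of the recovered RNA went into each library, against 200 ng for an input. Only the wild-type lists were analysed here, so no effect of the knockouts is described.

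The family works by direct binding. Pro-survival proteins hold the effectors Bax and Bak1 in check, BH3-only proteins such as Bim (encoded by Bcl2l11) and Puma (encoded by Bbc3) bind the pro-survival proteins or the effectors, and freed effectors open pores in the outer mitochondrial membrane, from which cytochrome c escapes to start the caspase cascade. Embryonic stem cells are known for being close to the threshold of apoptosis. m6A is written on nascent mRNA by the Mettl3 complex, mostly at adenosines within a GGAC-like sequence, and is best known for marking transcripts for faster decay.

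The 2 peak lists differ in length, with 22531 peaks in replicate 1 and 5040 in replicate 2. A peak's fold enrichment is its ratio of immunoprecipitated to input signal as MACS2 gave it, with a median of 5.39 over all peaks of replicate 1 and 6.35 over those of replicate 2. Its −log10 q is the strength of the call, with a median of 28.9 in replicate 1 and 7.54 in replicate 2. The lists hold no read counts, so the depth is unknown and values of the replicates are set side by side without adjustment. The peak names in the list of replicate 1 carry a sample name that does not name wild-type cells. The replicates were taken from the sample labels. A peak list holds no expression values, so the labelled cell type could not be checked by level. Of 9 stem cell markers, 5 had a peak in replicate 1 and 0 in replicate 2. Pou5f1, Tfcp2l1, Dppa5a and Tdgf1 had none, and the Sox2 peak also lies at Sox2ot. Of 5 fibroblast markers, 2 had a peak in replicate 1 and 1 in replicate 2. Beside these counts, 41.3% of all protein-coding genes had a peak in replicate 1 and 16.9% in replicate 2.

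Sequence was at hand only around annotated transcription starts, in RefSeq windows of GRCm38 that run 250 bases before to 50 after a start. Of the 19 member peaks of replicate 1, 5 at Bcl2l1, Mcl1, Bcl2l11 and Bad reached into such a window. Those at Bcl2l11 and Bad also lie on Acoxl or Gpr137. The share of all peaks that reach a window is not given here, so this count is not set against a background. GGAC, the core of the m6A consensus, and GGACT were searched on the transcript strand and on the opposite strand. Shown are all transcript-strand matches in the windows of Bcl2l11 and Mcl1 and the GGACT of Bad, to place the motif beside the peaks, as 30 bases 5′ to 3′ with the motif in capitals.
Bcl2l11, chr2:128125940-128125969, plus strand, inside the peak: cttgccgggggccGGACTaaacgggggcgg
Bcl2l11, chr2:128125835-128125864, plus strand, 59 bp before the peak: cacgcaaactgcaGGACagccggcggggcc
Mcl1, chr3:95658558-95658587, plus strand, 73 bp before the peak: tgagagttgtaccGGACaaaaaagcacaat
Bad, chr19:6941720-6941749, plus strand, 95 bp downstream of the first peak: tcttaatgtttggGGACTaccatttcccac
Only the first of these lies within a peak, 85 bp upstream of the Bcl2l11 start and within the gene body of its neighbour Acoxl. The others also lie before the annotated start of their window, at -190, -150 and -128 bp in the order shown. The GGACT of Bad lies within the body of Gpr137, on the strand opposite to that gene. A GGAC of Bad that is not shown begins 1 bp after an annotated start, outside the peak. The windows of Bad that its peaks reached held 3 and 1 GGAC in all, the GGACT included. The window of Bcl2l1 held no GGAC on the transcript strand and 3 on the opposite strand, of which 1 was GGACT. Of all 32851 windows, 65.6% held GGAC and 26.1% GGACT on the transcript strand, and 87.7% and 45.5% held them on either strand. The windows cover only part of each peak, so these matches describe letters and not methylated sites.

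Of the 10 genes, 7 carried a peak in at least 1 wild-type immunoprecipitation, and 2 of these, Bcl2l1 and Bbc3, did in both, where 39.1% of all protein-coding genes with a peak in replicate 1 also had one in replicate 2. In replicate 1 these were 7 genes with 19 peaks, namely Bcl2, Bcl2l1, Mcl1, Bcl2l11, Bbc3, Bad and Bid, where 41.3% of all protein-coding genes had a peak. In replicate 2 they were 2 genes with 1 peak each, where 16.9% of all protein-coding genes had one. The 2 of 10 genes with a peak in both replicates stand beside 16.1% of all protein-coding genes, a share close to that background. In replicate 1, 4 members (Bcl2l1, Bcl2l11, Bbc3 and Bad) had 3 or more peaks, where 13.4% of all protein-coding genes did. Bad reached 3 only through the 500 bp allowance, with a peak that lies 223 bp outside its body and on Gpr137. No peak was listed within 500 bp of Pmaip1, Bax or Bak1 in either replicate. The cells were measured in bulk, so a site methylated in few cells and one enriched weakly in all of them cannot be told apart, and a gene without a peak may have little RNA in these cells.

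**Figure D1:**
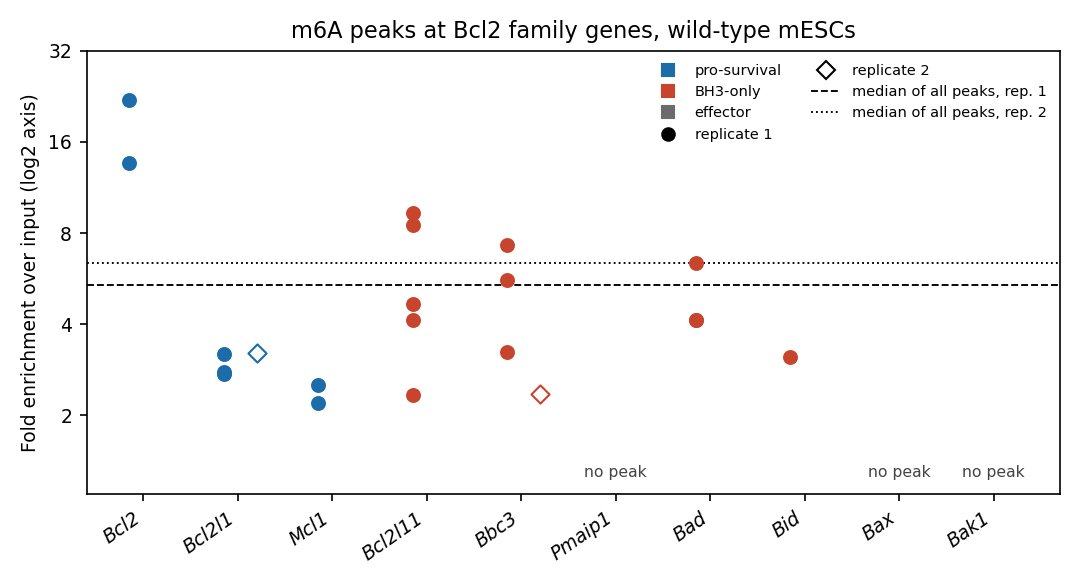
Fold enrichment over input (log2 axis) of every m6A peak within 500 bp of the 10 genes in wild-type mESCs, filled circles for replicate 1 and open diamonds for replicate 2, coloured by role. Lines are the medians of all peaks, 5.39 in replicate 1 and 6.35 in replicate 2, and the peaks of Bcl2, at 22.0 and 13.6, stand above those of the other members.

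Bcl2, the founding pro-survival gene, had the most enriched peaks of the family. It lies on chromosome 1 from 106538176 to 106714290 on the minus strand, a gene body of 176115 bp that is the longest of the 10. Its peak toward the 3′ end ran from 106542229 to 106543068 in replicate 1 and was enriched 22.0-fold over input, at a −log10 q of 68.4. Its summit lay 4606 bp from the 3′ end of the gene body. By fold enrichment this peak ranked 355 of 22531. The other peak, from 106712274 to 106714203, was 1930 bp wide, which ranked 497 of 22531 by width, and was enriched 13.6-fold at a −log10 q of 75.3. It reached to 87 bp from the 5′ end of the gene, so the peaks of Bcl2 sat at opposite ends with 169825 bp between their summits. Replicate 2 listed no peak at Bcl2, and the nearest one lay 145.3 kb away.

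Bcl2l1, which encodes the pro-survival protein Bcl-xL and, by splicing, a pro-death form, had weaker enrichment but a peak in both replicates. The gene runs from 152758732 to 152833803 on the minus strand of chromosome 2. Its shared peak ran from 152781881 to 152782497 in replicate 1 and from 152782060 to 152782368 in replicate 2, so the peak of replicate 2 lay wholly inside that of replicate 1, with summits 10 bp apart. The enrichment over input was 3.20-fold in the first replicate and 3.21-fold in the second, while the −log10 q was 81.8 and 5.81. Thus the ratio was nearly the same in both lists, and both values lay below the median of their own list. The other peaks of Bcl2l1, at 152829561 to 152830321 and 152830451 to 152830763, were found in replicate 1 only and were enriched 2.73-fold and 2.77-fold. Their summits lay 997 bp and 242 bp downstream of the nearest annotated start.

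Mcl1 encodes a short-lived pro-survival protein that embryonic cells require, and its gene body of 6236 bp, on chromosome 3 from 95656944 to 95663179 on the plus strand, is short. It had 2 peaks in replicate 1, which together covered 16.5% of the gene body. One, from 95658647 to 95659309, was enriched 2.52-fold at a −log10 q of 70.0, and the other, from 95660603 to 95660965, 2.20-fold at 51.8. The first spanned the annotated start at 95658721, which lies inside the gene body, and its summit was 400 bp downstream of that start. Both calls were strong for so small a ratio. Of the 1601 other peaks of replicate 1 with a fold enrichment within 10% of the first, 2.12% had a higher −log10 q. Mcl1 had no peak in replicate 2. Over the 7 peaks of the pro-survival genes in replicate 1, the fold enrichment ran between 2.20 and 22.0 and the −log10 q between 11.5 and 81.8.

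Among the pro-death genes, Bcl2l11 had the most peaks, 5 in replicate 1, where 4.42% of all protein-coding genes had 5 or more. It encodes Bim, a BH3-only activator, and runs from 128126038 to 128162547 on the plus strand of chromosome 2. Going 5′ to 3′, the fold enrichments were 9.35, 4.67, 4.12, 2.33 and 8.51, and the −log10 q values 39.98, 7.68, 33.7, 2.16 and 17.0. All 5 summits lay within the first 8881 bp of the gene body of 36510 bp, and none lay in the remaining part toward the 3′ end. The first peak, from 128125910 to 128126344, spanned the start of the gene and contains the GGACT site printed above. It also covers 343 bp of Acoxl, a gene on the same strand whose end overlaps Bcl2l11 by 215 bp. This first peak could therefore not be assigned to 1 of the 2 genes. The second peak, from 128126740 to 128127094, lies wholly within the Bcl2l11 body. It covers 0 bp of Acoxl but lies within 500 bp of that gene. Replicate 2 had no peak at Bcl2l11.

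Bbc3, which encodes the p53-induced BH3-only protein Puma, was the pro-death gene with a peak in both replicates. On chromosome 7, plus strand, from 16308398 to 16318334, it had 3 peaks in replicate 1 with fold enrichments of 5.60, 7.30 and 3.24 from 5′ to 3′ and −log10 q values of 91.9, 80.1 and 101.7, the last being the highest of any member. The peak found again in replicate 2 was this last one, from 16316906 to 16317525 in replicate 1 and from 16316981 to 16317355 in replicate 2. The summits were 1 bp apart, 1039 bp and 1040 bp from the 3′ end of the gene. In replicate 2 it was enriched 2.36-fold, which ranked 4998 of 5040, at a −log10 q of 3.40. So in Bbc3 it was the least enriched peak of replicate 1 by ratio, and the strongest by −log10 q, that recurred.

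Bad and Bid had peaks in replicate 1 only. Bad, a BH3-only sensitizer kept inactive by survival-factor phosphorylation, lies on chromosome 19 from 6941861 to 6951905 on the plus strand. Its peak at the 3′ side spanned 6950514 to 6951614 and was enriched 4.15-fold at a −log10 q of 47.0, and the summit was 470 bp from the 3′ end. The peaks at its start, one enriched 4.14-fold at 6941301 to 6941638 and one 6.37-fold at 6941960 to 6942347, also lie on Gpr137, which runs in the opposite direction and overlaps Bad by 590 bp. The first of them did not touch Bad at all and was 223 bp away, so it entered through the 500 bp allowance. That first peak lies on Gpr137 over its whole width of 338 bp. The second lies on both genes, and peak lists carry no strand, so it could not be divided between Bad and Gpr137. Bid, a BH3-only protein that caspase-8 cleaves and so links death receptors to mitochondria, lies on chromosome 6 from 120893119 to 120917062 on the minus strand. Its 1 peak, from 120893425 to 120894496, was enriched 3.11-fold at a −log10 q of 93.8, and its summit was 1050 bp from the 3′ end.

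The members without a peak were both effectors, Bax on chromosome 7 from 45461695 to 45466903 and Bak1 on chromosome 17 from 27019812 to 27028627 (a body that overlaps Ggnbp1), and Pmaip1 (Noxa), a BH3-only partner of Mcl1 and a p53 target. Bax was the shortest gene of the set at 5209 bp. The nearest peak to Bax lay 5.64 kb away in replicate 1 and 5.48 kb away in replicate 2. To Bak1 it lay 17.2 kb and 58.1 kb away, and to Pmaip1 2.72 kb and 477.2 kb. Outside the 500 bp limit the closest peak to any member was 2575 bp from Bcl2l11, and inside it the farthest was that 223 bp from Bad, so no peak lay close to the limit on either side.

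**Figure D2:**
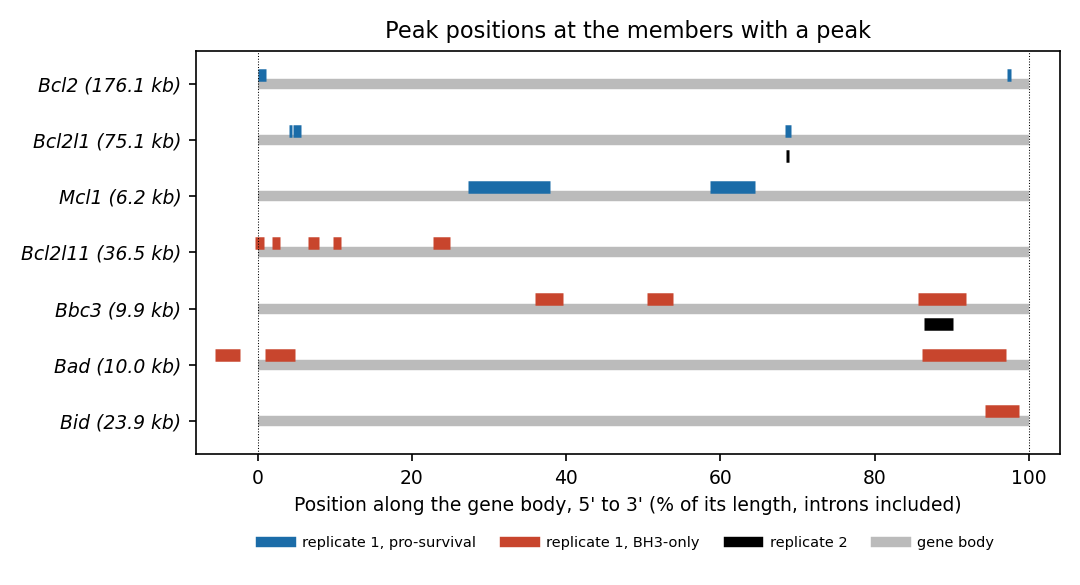
Position of each peak along the gene body of the 7 genes with a peak, in percent of its length from the 5′ end (left, 0) to the 3′ end (right, 100), introns included. Coloured bars are peaks of replicate 1 (blue pro-survival, red BH3-only), black bars those of replicate 2 and grey bars the gene bodies, and the 5 peaks of Bcl2l11 all lie in the left part while that of Bid lies at the right end.

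By role, all 3 pro-survival genes and 4 of the 7 pro-death genes had a peak in replicate 1, beside 41.3% of all protein-coding genes. In replicate 2, 1 gene of each kind had one, beside 16.9% of all protein-coding genes. The 4 pro-death genes of replicate 1 were BH3-only genes, 4 of 5, and 0 of the 2 effectors had a peak. The pro-survival genes had 7 peaks and the pro-death genes 12 in replicate 1. The highest fold enrichment per gene had a median of 3.20 over the pro-survival genes (2.52 to 22.0, n = 3) and of 6.84 over the pro-death genes with a peak (3.11 to 9.35, n = 4), a difference of -3.64, beside a median of 6.45 over all protein-coding genes with a peak. These ranges overlapped, since Bcl2 stood above every pro-death gene and Mcl1 below. The median −log10 q per peak was 68.4 for the pro-survival and 36.9 for the pro-death genes, and the median width 663 bp and 411.5 bp. Of the 12 pro-death peaks, 4 lie on or within 500 bp of Acoxl or Gpr137, against 0 of the 7 pro-survival peaks. Without these 4 the pro-death medians were 63.6 for the −log10 q and 555.5 bp for the width. The median highest fold enrichment of the pro-death genes was then 5.72. The 4 include the second Bcl2l11 peak, 355 bp wide at a −log10 q of 7.68, which covers 0 bp of Acoxl. Medians with that peak kept were not computed. With replicate 1 reduced to its 5040 strongest calls, the difference of the median −log10 q, pro-survival minus pro-death, turned to -22.9. Gene bodies differed as well, with a median of 75072 bp for the pro-survival and 9937 bp for the pro-death genes, and the part of length in these counts was not tested. With 3 and 7 genes that are not replicates of a condition, no test was made of this contrast. Among peaks with a fold enrichment of at least 4 the difference of the medians turned to 14.7, since Bcl2 was then the only pro-survival gene left.

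**Figure D3:**
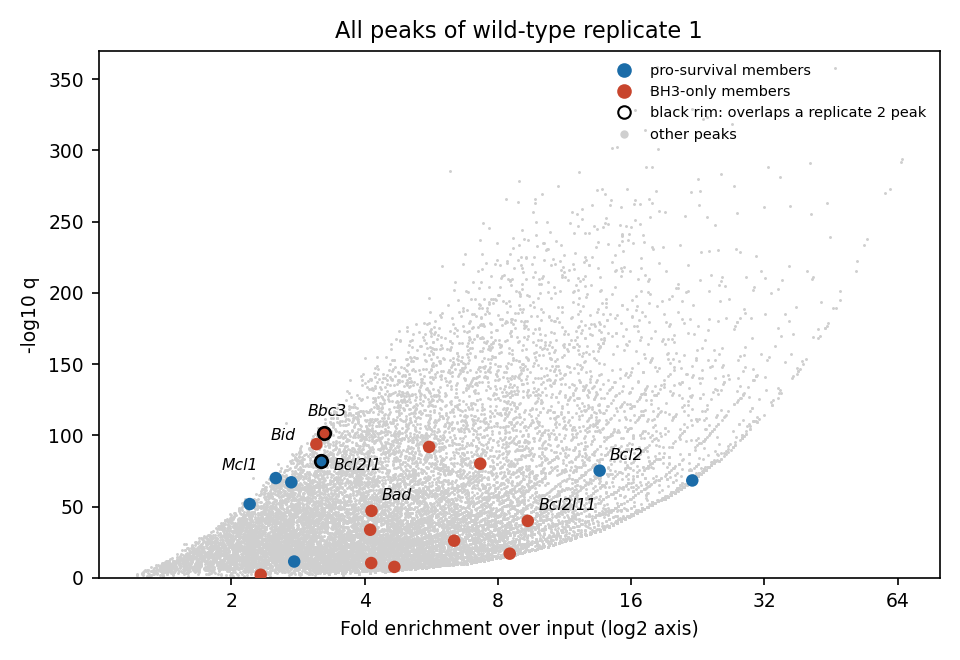
Fold enrichment over input (log2 axis) against −log10 q for all 22531 peaks of wild-type replicate 1 (grey), with the 19 peaks at Bcl2 family genes in blue (pro-survival) and red (BH3-only), and a gene's name beside its peak of highest −log10 q. Black rims mark the 2 peaks that overlap a replicate 2 peak, at a fold enrichment of 3.20 (Bcl2l1) and 3.24 (Bbc3).

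The overlap of the replicates at the members is given beside that of all peaks. Of the 19 member peaks of replicate 1, 2 overlapped a peak of replicate 2, where 19.1% of all peaks of replicate 1 did. Both peaks of replicate 2 at members overlapped one of replicate 1, where 92.1% of all peaks of replicate 2 did. In replicate 1, 10 member peaks had a −log10 q of at least 50 and 2 of them were shared, where 43.3% of all such peaks were. Of the 10, 6 had a fold enrichment under 4, and 2 of these 6 were shared, beside 35.2% of all peaks in that range. The other peaks of that range, at Bcl2l1, Mcl1 and Bid, were not shared. The peaks of Bcl2, with the highest ratios of the family, were not among the shared ones.

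The position of the summits along the gene is given as a description, without a test. Of the 16 summits of replicate 1 that lay inside the body of a member and of no other protein-coding gene, 5 fell in the first 10% of the gene body and 3 in the last 10%. Over all protein-coding genes with a known strand, 10.6% of 14864 such summits fell in the first 10% and 31.8% in the last. The 5 summits came from Bcl2, Bcl2l1 and Bcl2l11, whose gene bodies are the 3 longest of the set, and the 3 came from Bcl2, Bad and Bid. The Mcl1 summit 400 bp downstream of its annotated start was not among the 5, because the gene body begins upstream of that start. Introns are included in these positions, and exons were not used.

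Among 3531 protein-coding genes with a peak in both replicates, Bcl2l1 ranked 3126 by its highest fold enrichment in replicate 1 and 3321 in replicate 2, and Bbc3 ranked 1862 and 3504. Of the 10 members, Bcl2l1 had the higher value when the lower of the replicates was taken, 3.20 beside 2.36 for Bbc3. The genes closest to Bcl2l1 in highest fold enrichment, as distance on the log2 scale over the 2 replicates, were Jag2 (3.11 and 3.19), AU022252 (3.17 and 3.32) and Atg4d (3.32 and 3.25).

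The rest of the apoptosis pathway was described with 6 lists of 52 other genes. Of these, 28 had a peak in replicate 1 and 10 in both replicates, where 41.3% and 16.1% of all protein-coding genes did. Among 13 other Bcl2 family genes, 5 had a peak in replicate 1 and 2 in both, Hrk and Bcl2l12. Hrk, a BH3-only gene of neuronal cell death, was enriched 11.2-fold in the first replicate and 7.35-fold in the second, and its peaks overlapped. Thus its enrichment was above that of Bbc3 and of Bcl2l1 in both lists. The highest peaks near Bcl2l12, at 4.34 and 6.77, belong to a locus it shares with other genes. Bmf, another BH3-only gene, had 3 peaks in replicate 1 only, enriched up to 7.003-fold and with a −log10 q of up to 119.0, above any member. Bok, Bik and Bcl2l2 had no peak.

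Among the other lists, genes of the death receptor pathway had a peak in both replicates in 4 of 8 cases, namely Tnfrsf1a, Fadd, Ripk1 and Cflar. At Tnfrsf1a, Plekhg6 also lay within 500 bp of at least 1 peak in each replicate. Cflar, which blocks caspase-8 activation, was enriched 7.58-fold in the first replicate and 7.57-fold in the second, and Fadd, the adaptor that recruits caspase-8, had 3.73 and 7.09. Of 8 caspase and apoptosome genes 3 had a peak in replicate 1 and 2 in both, Casp9 and Casp8 (the Casp8 peaks did not overlap), while Apaf1 and Cycs had none. Of 7 genes for inhibitors of apoptosis and their antagonists 5 had a peak in replicate 1 and 1 in both, Birc3, which encodes cIAP2, with 13.9 and 13.8. Of 8 genes of p53 and its regulators 5 had a peak in replicate 1 and 1 in both, Trp73, which encodes the p53 relative p73, with 14.1 and 14.4, and Trp53 itself had none. Of 8 genes for turnover and localisation of BCL2 proteins 4 had a peak in replicate 1 and 0 in both, among them Huwe1, the ubiquitin ligase of Mcl1, with 2.43 in replicate 1. None of these lists was tested.

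**Figure D4:**
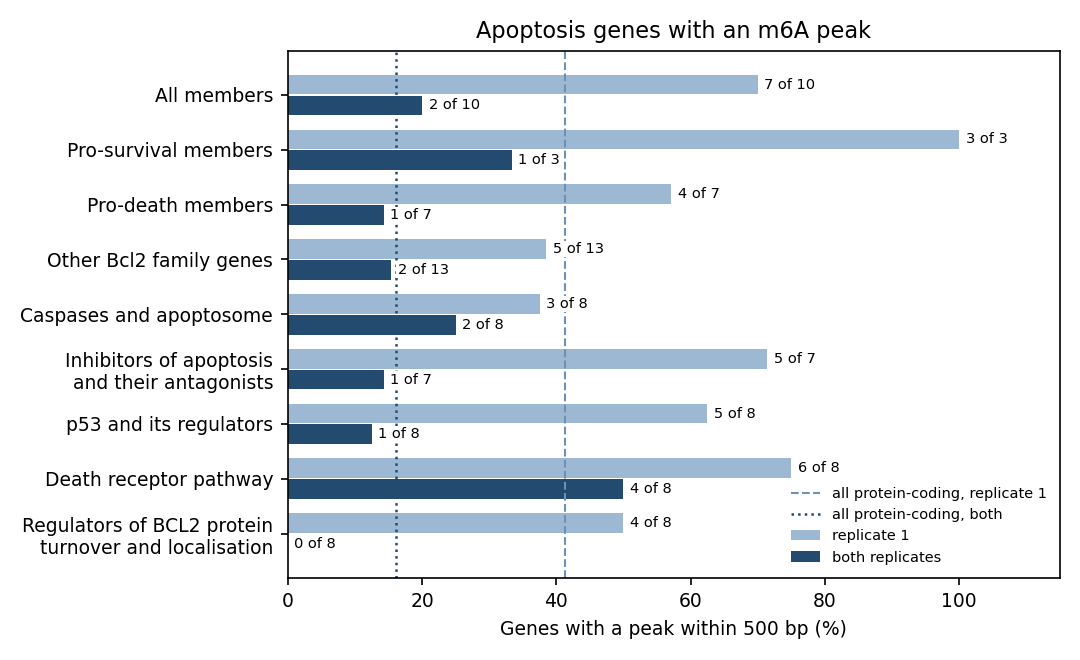
Percent of genes with a peak within 500 bp in replicate 1 (light bars) and in both wild-type replicates (dark bars), for the Bcl2 family genes and 6 other apoptosis lists, with counts beside the bars. Dashed and dotted lines are the shares of all protein-coding genes, 41.3% in replicate 1 and 16.1% in both, and 2 of 10 members against 4 of 8 death receptor genes had a peak in both.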

How the data were processed

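Of the 9 samples, the peak lists of both wild-type immunoprecipitations were used, and the other 7 samples were not analysed here. MACS2, SAMtools, Bowtie and the build mm10 are listed in the submitters' processing notes. The authors ran MACS2 with its defaults on the wild-type immunoprecipitations, with input as the control. Per the labels the lists are separate replicates, and nothing says that they came from separate cultures. The deposited columns used were the position, the fold enrichment (a ratio over input) and −log10 of the q-value, and the deposited score and −log10 p were not used. Libraries were made with a strand-keeping kit, but the lists carry no strand. For duplicate reads the handling was not given in the sources used here.

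Peaks were joined to RefSeq gene bodies of GRCm38 within 500 bp, with coordinates counted from 1, and strand came from the RefSeq table of start windows, which lacks Pmaip1. Peaks were called shared at an overlap of 1 bp. The members, lists and comparisons were chosen with earlier results of these data known, so counts are descriptions beside the share of all protein-coding genes, with no test. All 10 members are named, and of each list the genes with a peak in both replicates, at most 5. Those without a peak, Bmf, Birc6 and Huwe1 were chosen after their values were seen. The overlap code, tested on simulated data, gave 0 differences from an exhaustive comparison. Alternatives were stricter peaks, an equal list length, other distances and overlaps, the nearest gene, and each replicate alone. Leaving out peaks on or within 500 bp of another gene was added after seeing the data. Python 3.11.15, numpy 2.4.6, pandas 2.3.3 and matplotlib 3.10.9 were used.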

Additional observations from a re-analysis of the deposited data

How the results depend on the processing

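The counts of genes with a peak, and of shared peaks, did not change with a distance of 0 or 2000 bp, with the nearest protein-coding gene only, or with a required overlap of 50% of both peaks. With peaks of −log10 q of at least 5, 1 member had a peak in both replicates and 1 in replicate 2 (Bcl2l1), 0 pro-death members did in both, and 1 peak of replicate 2 overlapped one of replicate 1. With a fold enrichment of at least 4, 4 members had a peak in replicate 1 (Bcl2, Bcl2l11, Bbc3 and Bad) and 0 in replicate 2 or in both, 0 of each role, with 0 overlapping peaks, since every replicate 2 peak at a member is under 4. The difference of the median highest fold enrichment, pro-survival minus pro-death, was -3.64, but 14.7 at that fold enrichment, where Bcl2 alone was left, and -2.01 with replicate 1 reduced to the 5040 peaks of highest −log10 q, which drops Bcl2l11 and Bad. The same difference of the median −log10 q was 31.5, but -22.9 with the reduced list. It was 4.79 without the 4 peaks on or within 500 bp of another gene, an alternative chosen after seeing the data. That of the median width was 251.5 bp, but 997 bp among peaks enriched at least 4-fold and 107.5 bp without those 4 peaks. Those 4 include the second Bcl2l11 peak, which covers 0 bp of Acoxl, and the differences with that peak kept were not computed. With each replicate alone, members with a peak numbered 2 to 7, pro-survival members 1 to 3 and pro-death members 1 to 4, the higher counts from replicate 1. No paired analysis was possible because only 1 group has peak lists. No read depth can be read from the lists, and the short list of replicate 2 bounds every count in both.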

Other observations

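The members differed in where their peaks stood among peaks of like ratio, a comparison chosen after the data were seen. Of the 2064 other peaks of replicate 1 with a fold enrichment within 10% of that of the 3′ peak of Bbc3, 1.84% had a higher −log10 q, and at Bid this was 2.71% of 2033. For the other peaks of Bbc3 it was 11.5% and 15.8%, for those of Mcl1 2.12% and 3.86%, and for the shared peak of Bcl2l1 8.05%. At the 3′ peak of Bcl2 it was 79.8% of 267, the lowest −log10 q among them being 59.4 beside its own 68.4. Higher shares were found at the Bcl2l11 peaks enriched 2.33-fold (99.8%) and 4.67-fold (83.5%) and at the Bcl2l1 peak enriched 2.77-fold (85.5%), so the peaks of Bcl2l1 stood toward both ends.

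Trp73 and Birc3 had more peaks in replicate 1, 7 and 6, than any of the 10 members. Birc6, a very large inhibitor of apoptosis, had 5 peaks in replicate 1, enriched up to 14.2-fold, and 0 in replicate 2.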
